A study of Mus musculus with 24 samples.

Results

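The metallothioneins and antioxidant genes described here are 10 mouse genes, a list of named genes drawn up with earlier results of these data known: the metallothioneins Mt1, Mt2 and Mt3, the stress-inducible enzymes Hmox1 and Nqo1, the peroxide-removing enzymes Gpx3, Gpx4, Cat and Prdx6, and the thioredoxin inhibitor Txnip. All 10 had a row in the count tables, out of 46603 annotated genes and 126602 features in all, and 9 of the 10 were abundant enough for testing. They were read in 24 RNA libraries, each from an individual mouse retinal organoid (MRO), with 6 organoids at each of 4 timepoints, day 20 (D20), D22, D25 and D30 in culture. MROs are aggregates of retinal tissue that form in culture from mouse embryonic stem cells, here the wild-type line E14Tg2a, and the labels give every organoid of all 4 groups as a control to which water was added as solvent. The study's culture protocols also add the synthetic retinoid analog EC23 to the medium during differentiation, a treatment that all groups would share. All organoids came from 1 independent experiment with 1 cell line, so p-values measure the spread between organoids of that experiment, and timepoint cannot be told apart from anything else that differed between the sampling days. The comparisons ask which genes change while the organoids mature, and each value is a mixture over all cells of an organoid, in which fewer cells of a type and less RNA per cell cannot be told apart.

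Metallothioneins are small cysteine-rich proteins that bind zinc and copper and buffer free metal. Mt1 and Mt2 are made in most tissues and are induced by metals through the transcription factor MTF1, whereas Mt3 is known mainly from the nervous system. Haem oxygenase 1 (Hmox1) breaks haem down to biliverdin, iron and carbon monoxide, and NAD(P)H quinone dehydrogenase 1 (Nqo1) reduces quinones, and both are textbook targets of the transcription factor Nrf2 (gene Nfe2l2). Peroxides are removed by catalase (Cat), by the selenium-containing glutathione peroxidases, of which Gpx4 acts on lipid peroxides in membranes and Gpx3 is secreted, and by the peroxiredoxin Prdx6. Txnip binds thioredoxin and is induced by glucose through transcription factors that recognise a pair of CACGNG boxes. In the retina, photoreceptors have membranes rich in polyunsaturated lipids and a high use of oxygen, and Müller glia, the radial glia that span the tissue, supply neighbouring neurons with glutathione and other support.

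In the GRCm38 annotation 5 of the 10 genes lie on chromosome 8. The metallothionein cluster holds Mt3 (ENSMUSG00000031760) at chr8:94152607-94154146, Mt2 (ENSMUSG00000031762) at chr8:94172664-94173568 and Mt1 (ENSMUSG00000031765) at chr8:94179082-94180327, all on the plus strand, with 18517 bases between Mt3 and Mt2 and 5513 bases between Mt2 and Mt1. Hmox1 (ENSMUSG00000005413) lies at chr8:75093621-75100589 on the plus strand and Nqo1 (ENSMUSG00000003849) at chr8:107388225-107403206 on the minus strand. Txnip (ENSMUSG00000038393) lies at chr3:96557957-96561883, Gpx3 (ENSMUSG00000018339) at chr11:54902453-54910377 and Gpx4 (ENSMUSG00000075706) at chr10:80047166-80056439, all on the plus strand, and Cat (ENSMUSG00000027187) at chr2:103453849-103485160 and Prdx6 (ENSMUSG00000026701) at chr1:161240112-161251219, both on the minus strand. An annotated antisense gene overlaps Txnip (Gm15441, between 4 and 70 counts per organoid) and another overlaps Mt2 (Gm45774, which has no row in the tables). The library kit kept strand, but the sources used here do not state whether the counting did.

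The 250 bases before the start site are shown for the neighbours Mt1 and Mt2, which moved together, and for Txnip, the member that moved the other way. The sequences are RefSeq's for GRCm38.p6, which held promoters for 8 of the 10 members, written 5′ to 3′ on the plus strand at chr8:94178839-94179088, chr8:94172368-94172617 and chr3:96557707-96557956. Capitals mark the core of the metal response element in Mt1 and Mt2, TGCACNC or TGCGCNC on either strand, and in Txnip a pair of CACGNG boxes 5 bases apart.
Mt1: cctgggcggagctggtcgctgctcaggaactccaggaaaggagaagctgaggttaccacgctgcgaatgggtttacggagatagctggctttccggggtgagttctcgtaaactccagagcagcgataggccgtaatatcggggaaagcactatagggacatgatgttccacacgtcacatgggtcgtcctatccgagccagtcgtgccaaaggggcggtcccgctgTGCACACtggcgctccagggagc
Mt2: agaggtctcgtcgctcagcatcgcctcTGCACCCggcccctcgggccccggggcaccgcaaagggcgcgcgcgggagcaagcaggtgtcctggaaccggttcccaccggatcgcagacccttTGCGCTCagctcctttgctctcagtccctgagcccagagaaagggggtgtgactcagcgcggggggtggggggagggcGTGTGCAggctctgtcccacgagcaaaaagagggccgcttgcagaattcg
Txnip: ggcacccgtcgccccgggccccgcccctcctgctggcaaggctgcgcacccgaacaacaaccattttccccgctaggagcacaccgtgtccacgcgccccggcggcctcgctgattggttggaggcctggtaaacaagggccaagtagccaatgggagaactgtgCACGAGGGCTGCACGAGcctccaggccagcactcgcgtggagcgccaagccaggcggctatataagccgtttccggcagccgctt
The Mt1 sequence held 1 match to the metal core, TGCACAC at -23 to -17, where -1 is the last base before the RefSeq start site. Bases past that site were not searched, so the counts of matches are for these windows and not for the whole promoters of Mt1, Mt2 and Txnip. The Mt2 sequence held 3, TGCACCC at -223 to -217, TGCGCTC at -128 to -122 and, on the minus strand, TGCACAC at -50 to -44. The Mt2 sequence also held the antioxidant response element core, TGACNNNGC, as TGACTCAGC at -79 to -71, and its RefSeq start site lies before the annotated start of the gene used for the counts. The Txnip sequence held the paired boxes at -85 to -69 and 1 match to the metal core, TGCGCAC at -208 to -202, left in lower case. Over 32536 promoter sequences of the same length, 21.5% had at least 1 metal core, 1.28% had at least 3, 10.2% had the antioxidant core and 15 sequences (0.0461%) had the paired boxes. None of these letters was found in the sequences of Mt3, Nqo1, Gpx3, Gpx4 or Cat, which says nothing of other parts of those genes. A match is a description of the sequence, and no binding was measured.

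Reads counted on features ranged from 13634846 to 19477108 per organoid, at which 3 counts correspond to 0.154 to 0.22 CPM (counts per 1000000 reads on features). Levels below are normalized CPM, which is that value after scaling by the trimmed mean of M values. No 2 organoids of a timepoint agreed within sampling noise. Photoreceptor markers (6 genes) summed to 873 to 1254 CPM at D20 and 2599 to 4486 CPM at D30, and the 10 Müller glia markers to 1091 to 1456 and 1565 to 4679 CPM. Of 9 microglia or macrophage markers the sum did not pass 1.31 CPM in any organoid, with Tyrobp and Trem2 at 0 in all, and the sum of 6 erythroid markers did not pass 0.915 CPM.

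By D30 most of the 9 tested genes stood above their D20 level, and Txnip stood below it. Tests used edgeR's quasi-likelihood test over all 24 organoids with adjustment over 46949 features, and a gene was called at an adjusted p below 0.01. Between D22 and D20, 0 of 9 members were called, against 1.62% of all features called higher and 0.285% lower (2.56% and 0.763% of the 16253 annotated genes among them), and 0 had an unadjusted p under 0.05. At D25 against D22, Mt3 and Gpx4 (2 of 9) were higher and 0 lower, against 3.08% and 2.19% of features (7.33% and 2.92% of annotated genes). At D30 against D25, 5 members were higher, Mt1, Mt2, Mt3, Gpx4 and Prdx6, and 0 lower, against 1.76% and 1.75% of features (4.55% and 2.83% of annotated genes). Over the whole interval, D30 against D20, 7 members were higher and 1, Txnip, was lower, against 13.9% and 13.0% of features (25.1% and 16.7% of annotated genes, the like-for-like share). Of the 7, Mt3 and Nqo1 were abundant enough for testing only through their levels at D25 and D30. Their place in the counts of higher members is therefore not independent of that choice. In the joint test over the 4 timepoints 8 of 9 members were called, against 27.2% of all features, and the share of annotated genes was not computed for it. The median log2 fold change of the members was -0.13, 0.50, 1.08 and 1.52 in the 4 comparisons in that order. That of all features was 0.02, -0.05, -0.02 and -0.04, and that of annotated genes was -0.06, 0.10, 0.05 and 0.10. The comparisons share organoids and are not independent of one another. The count at D25 against D22 was 1 without any one of D22 organoids 1, 3, 5 and 6, D25 organoids 1, 3, 4 and 6 and D30 organoids 2, 4 and 5, and the count at D30 against D25 was 3 without any one of D25 organoids 4, 5 and 6 and D30 organoid 5.

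**Figure D1:**
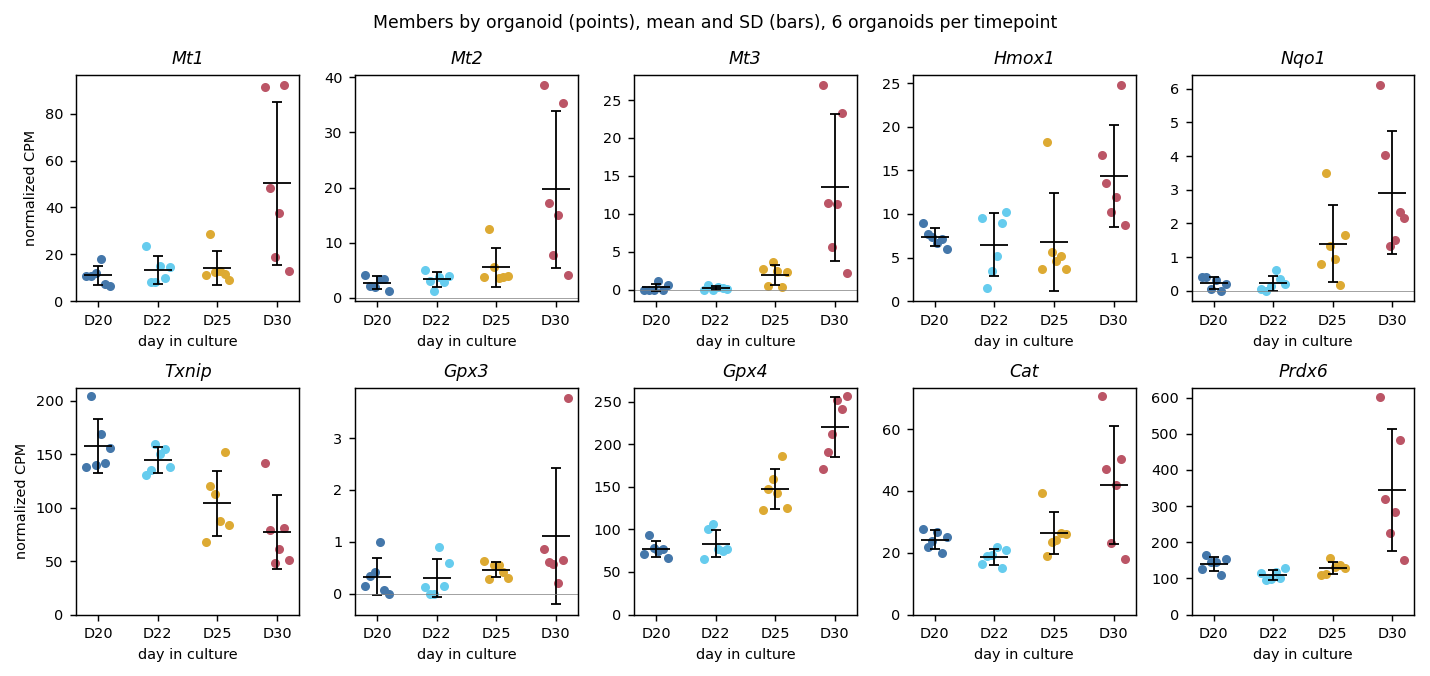
Normalized CPM (y axis, linear, a scale for each gene) of the 10 members by day in culture (x axis), with 1 point per organoid, a horizontal bar at the mean and whiskers of 1 SD over 6 organoids. At D30 the points of Mt1, Mt2, Mt3, Cat and Prdx6 spread widely, from 12.9 to 92.4 for Mt1, whereas those of Gpx4 stay between 171 and 257.

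Among the single steps Mt1 and Mt2 were called in the last only, whereas Mt3 was called from D22 on, rising from a level near detection. Mt1 was at 6.40, 10.8 and 18.1 CPM (lowest, median and highest of 6 organoids) at D20, at 8.04, 12.2 and 23.5 at D22, at 8.97, 11.99 and 28.8 at D25 and at 12.9, 43.0 and 92.4 at D30. The first 3 timepoints thus overlapped almost fully, and at D30 5 of 6 organoids were above every organoid of D20. The log2 fold change of Mt1 was 0.27 ± 0.37 (SE) at D22 against D20 (adjusted p = 0.78), 0.11 ± 0.37 at D25 against D22 (adjusted p = 0.899), 1.82 ± 0.37 at D30 against D25 (adjusted p = 0.00179) and 2.19 ± 0.38 at D30 against D20 (adjusted p = 2.6e-05). A fit of D25 and D30 alone gave an adjusted p of 0.0102 for the step from D25 to D30.

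Mt2, the neighbour of Mt1, was likewise called at D30 against D25 and against D20. Its levels were 1.28, 2.75 and 4.20 CPM at D20, 1.22, 3.38 and 5.09 at D22, 3.60, 3.82 and 12.5 at D25 and 4.16, 16.2 and 38.7 at D30. The lowest organoid at D30 lay within the range of D20 and the other 5 were above it. The fitted log2 differences of Mt2 were 0.72 ± 0.42 at D25 against D22 (adjusted p = 0.307), 1.85 ± 0.41 at D30 against D25 (adjusted p = 0.00405) and 2.86 ± 0.44 at D30 against D20 (adjusted p = 4.16e-06). The call at D30 against D25 was lost without any one of D25 organoids 1, 4, 5 and 6 and D30 organoids 1 and 5 (adjusted p up to 0.0192) and in a fit of those 2 timepoints alone (adjusted p = 0.0183).

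Mt3, the metallothionein of the nervous system, had 0 counts in 4 of 6 organoids at D20 and in 2 of 6 at D22, with a highest value of 1.12 CPM at D20 and 0.628 at D22. It was at 0.297, 2.32 and 3.67 CPM at D25 and at 2.22, 11.4 and 27.0 CPM at D30. Every organoid at D30 was above every organoid at D20, and D25 lay between, with 2 of its organoids, at 0.297 and 0.418 CPM, still within the range of D22. The log2 fold change was 3.29 ± 0.84 at D25 against D22 (adjusted p = 0.00898), 2.78 ± 0.64 at D30 against D25 (adjusted p = 0.00529) and 5.45 ± 0.78 at D30 against D20 (adjusted p = 1.58e-06), and with mean counts of 4.5 at D20 and 2.83 at D22 the size of the first and last of these depends on the prior count of the fit. The call at D25 against D22 was lost in 12 fits that left out 1 organoid (D22 organoids 1, 3, 4, 5 and 6, D25 organoids 1, 3, 4 and 6, and D30 organoids 2, 4 and 5, adjusted p up to 0.0271), with annotated genes only (adjusted p = 0.0106), with DESeq2 (adjusted p = 0.0202) and with the replicate number as a block (adjusted p = 0.0213). The call at D30 against D25 was lost without any one of D25 organoids 2, 4, 5 and 6 and D30 organoids 1 and 5 (adjusted p up to 0.0227), with DESeq2 (adjusted p = 0.0611) and with the block (adjusted p = 0.0223).

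Hmox1 was not called in any of the 4 comparisons nor in the joint test (adjusted p = 0.0226). It was at 5.95, 7.24 and 9.02 CPM at D20, at 1.54, 7.06 and 10.2 at D22, at 3.65, 4.91 and 18.2 at D25 and at 8.70, 12.8 and 24.8 at D30. Although 5 of 6 organoids at D30 were above the range of D20, the log2 fold change was 0.97 ± 0.36 with an adjusted p of 0.0355, and at D30 against D25 it was 1.08 ± 0.37 with an adjusted p of 0.0751. Without D25 organoid 2, whose 18.2 CPM was the highest value of that timepoint, D30 against D25 gave 1.65 and an adjusted p of 0.00149. A fit of D20 and D30 alone gave 0.98 and an adjusted p of 0.00243 for that pair.

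Nqo1 was close to the detection limit in the younger organoids. In order of time its mean counts were 3.5, 3.33, 22.2 and 48.8, and its levels were 0.178, 1.14 and 3.49 CPM at D25 and 1.33, 2.26 and 6.11 CPM at D30. All 6 organoids at D30 were above the highest of D20, at 0.42 CPM, and the log2 fold change was 3.58 ± 0.67 (adjusted p = 7.08e-05). The step from D22 to D25, at 2.58 ± 0.67, just missed the threshold (adjusted p = 0.0103) although 5 of 6 organoids at D25 were above the range of D22, and it passed with DESeq2 (adjusted p = 0.000979), with 4 other settings, and without any one of D20 organoid 5, D22 organoid 4 and D25 organoid 5 (adjusted p = 0.00737, 0.00584 and 0.00439). D30 against D25 gave 1.06 ± 0.57 (adjusted p = 0.338).

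Among the peroxide-removing enzymes Gpx4, the glutathione peroxidase of membrane lipids, rose in both steps after D22. It was at 66.8, 75.7 and 93.6 CPM at D20, at 64.9, 77.1 and 107 at D22, at 123, 145 and 187 at D25 and at 171, 226 and 257 at D30. D22 and D25 did not overlap, nor did D20 and D30, and 5 of 6 organoids at D30 were above the range of D25. For Gpx4 the log2 fold change was 0.12 ± 0.12 at D22 against D20 (adjusted p = 0.69), 0.82 ± 0.12 at D25 against D22 (adjusted p = 5.64e-05), 0.58 ± 0.12 at D30 against D25 (adjusted p = 0.00253) and 1.52 ± 0.13 at D30 against D20 (adjusted p = 4.6e-11). Its coefficient of variation between organoids was between 11.9% and 19.4% at every timepoint, and at D30, at 15.9%, it was the lowest of the 10 members. Its calls held in every alternative fit and without any 1 organoid.

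Prdx6, a peroxiredoxin that also acts on phospholipids, rose in the last step and passed no test before it. It was at 109, 145 and 163 CPM at D20, at 94.8, 108 and 128 at D22, at 110, 130 and 156 at D25 and at 150, 302 and 602 at D30. The lowest organoid at D30 lay within the range of D25 and the other 5 were above it. For Prdx6 the log2 fold change was 1.42 ± 0.20 at D30 against D25 (adjusted p = 1.4e-05) and 1.29 ± 0.20 at D30 against D20 (adjusted p = 4.09e-06), after -0.37 ± 0.19 at D22 against D20 (adjusted p = 0.331) and 0.24 ± 0.19 at D25 against D22 (adjusted p = 0.496). Both calls held in every alternative fit and without any 1 organoid.

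Cat, which splits hydrogen peroxide in peroxisomes, was called at D30 against D20 and in no single step. It was at 19.8, 24.5 and 27.8 CPM at D20, at 15.2, 19.1 and 21.9 at D22, at 19.0, 25.1 and 39.3 at D25 and at 17.9, 44.5 and 70.6 at D30. Of the 6 organoids at D30, 4 were above the range of D20 and 2 were not. The log2 fold change was 0.79 ± 0.21 at D30 against D20 (adjusted p = 0.00397) and 0.66 ± 0.21 at D30 against D25 (adjusted p = 0.0571). The first was no longer called without any one of D20 organoids 2 and 5 and D30 organoids 1 and 5 (adjusted p between 0.0101 and 0.0243) or in a fit of D20 and D30 alone (adjusted p = 0.0151), and the second was called without D30 organoid 6 (0.82, adjusted p = 0.00404).

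Gpx3, the secreted glutathione peroxidase, had a mean of 8.30 normalized counts over all organoids, under the minimum of 10, and was not tested. In order of time its mean counts were 4.83, 4.33, 7.67 and 19.3. Organoid 6 at D30 alone held 68 counts (3.77 CPM), and the other 5 at D30 were between 0.206 and 0.857 CPM. With no filter on low counts, D30 against D20 gave a log2 fold change of 1.70 ± 0.80 (adjusted p = 0.128).

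Txnip was the member that fell. It was at 138, 149 and 204 CPM at D20, at 130, 144 and 159 at D22, at 67.9, 100 and 152 at D25 and at 48.4, 70.1 and 142 at D30. At D30 5 of 6 organoids were below every organoid at D20, and the remaining one, organoid 1 with 142 CPM, lay within that range. The log2 fold change was -1.04 ± 0.19 at D30 against D20 (adjusted p = 6.92e-05), made up of -0.13 ± 0.19, -0.48 ± 0.19 and -0.43 ± 0.19 in the 3 steps, none of which passed the test (adjusted p = 0.795, 0.108 and 0.214). Without D30 organoid 1 the last step was -0.70 and passed (adjusted p = 0.00584).

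**Figure D2:**
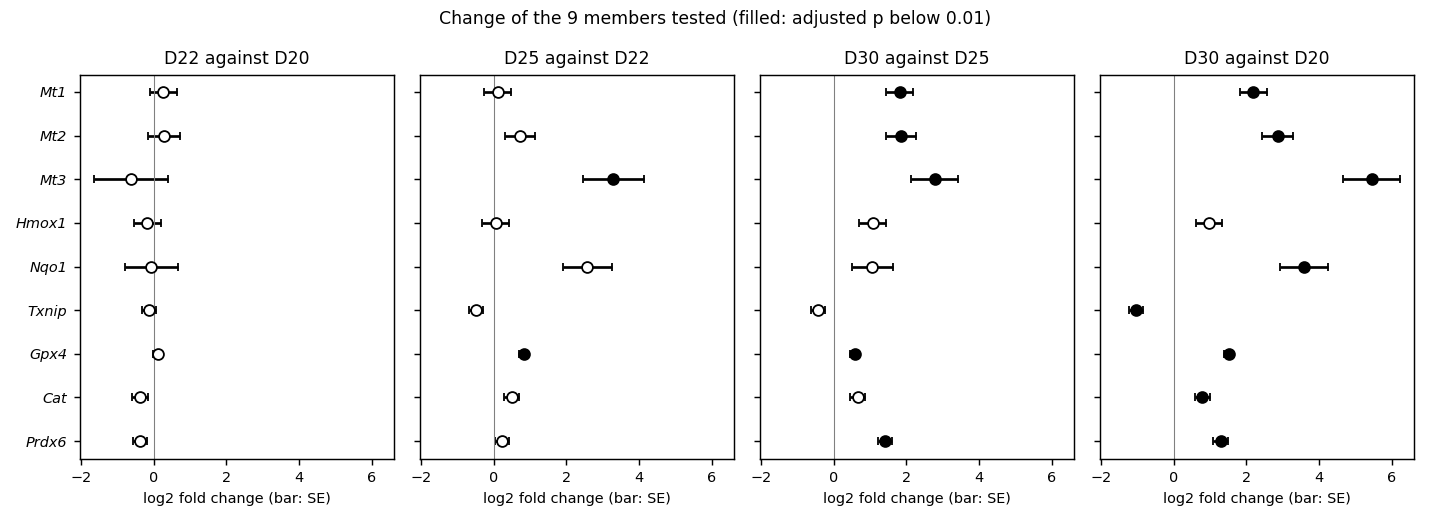
Log2 fold change (x axis, with 1 SE as bar) of the 9 tested members (y axis) in the 4 comparisons of timepoints, with filled circles for an adjusted p below 0.01 in edgeR's test over 24 organoids. No circle is filled at D22 against D20, 2 are filled at D25 against D22, 5 at D30 against D25, and 8 at D30 against D20, with Txnip alone on the left of 0.

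Levels per kilobase of exon used the joined exons of all annotated transcripts of a gene, 1246 bases for Mt1, 588 for Mt2 and 4804 for Prdx6. The order of genes on this scale therefore depends on which transcripts the organoids make, which was not measured. On this scale Txnip and Gpx4 had the highest mean levels at D20, 50.5 ± 8.13 and 44.6 ± 5.28 CPM per kb (SD, n = 6), which did not differ beyond their spread, followed by Prdx6 at 29.3 ± 4.13. Cat (9.26 ± 1.16) and Mt1 (8.82 ± 3.32) did not differ beyond their spread, nor did Mt2 (4.61 ± 1.92) and Hmox1 (4.18 ± 0.589), and Mt3, Gpx3 and Nqo1 were below 0.3 CPM per kb. At D30 the order was Gpx4 with 128 ± 20.3, Prdx6 with 71.6 ± 35.0, Mt1 with 40.3 ± 27.8, Mt2 with 33.5 ± 24.2, Txnip with 24.7 ± 11.1, Cat with 16.0 ± 7.34, Mt3 with 12.6 ± 9.15 and Hmox1 with 8.20 ± 3.33 CPM per kb. Nqo1 with 1.88 ± 1.18 and Gpx3 with 0.614 ± 0.727 came last. From Prdx6 down to Hmox1 each gene overlapped the next within 1 SD, and single organoids of Gpx4 and Prdx6 overlapped as well, so of the neighbours in the D30 order Hmox1 and Nqo1 were the pair with no overlap between organoids.

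Organoids of D30 differed from each other, and several members were high in the same organoids. Mt1 stood at 91.4 and 92.4 CPM in D30 organoids 1 and 5, at 48.4 and 37.5 in organoids 2 and 4, and at 18.9 and 12.9 in organoids 3 and 6. Mt2, Mt3 and Prdx6 had the same organoids at the top and at the bottom, with Mt3 at 27.0 and 23.2 CPM in organoids 1 and 5 and at 5.62 and 2.22 in organoids 3 and 6. Cat was likewise highest in organoid 1, at 70.6, and lowest in organoid 6, at 17.9 CPM. Gpx4 ran the other way at its ends, with its lowest D30 value, 171 CPM, in organoid 1 and its highest, 257 CPM, in organoid 6. In D25 organoid 2 the trio of Mt1, Mt2 and Hmox1 was high, at 28.8, 12.5 and 18.2 CPM, while Mt3, at 0.418 CPM, was not.

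Over the 36 pairs of tested members, log2 levels less the timepoint mean were correlated across the 24 organoids, with permutation within timepoints and adjustment over the 36 pairs. At an adjusted p under 0.05, 7 pairs passed, all with a positive Pearson r. Mt1 and Mt2 had an r of 0.88 (adjusted permutation p = 0.00144) and a Spearman rho of 0.60 (adjusted p = 0.067), and r was 0.81 without the 2 organoids farthest from the median of Mt1. Mt1 and Mt2 were each correlated with Hmox1, with r = 0.68 and 0.63 (adjusted permutation p = 0.00234 and 0.0191), and these were the 2 pairs that also passed by rho, at 0.66 and 0.70 (adjusted p = 0.0387 and 0.027), with r of 0.64 and 0.65 without the 2 farthest organoids. Those were the 2 farthest in the first gene of a pair, D30 organoids 5 and 6 for Mt1 and 1 and 6 for Mt2. D25 organoid 2, high in Mt1, Mt2 and Hmox1 alike, was not left out. In order of time r within timepoints was 0.27, 0.67, 0.97 and 0.93 for Mt1 with Hmox1. For Mt2 with Hmox1 it was 0.63, 0.44, 0.96 and 0.91. The other 4 pairs were Mt1 with Prdx6 (r = 0.73, rho = 0.49), Txnip with Prdx6 (r = 0.72, rho = 0.53), Cat with Prdx6 (r = 0.76, rho = 0.31) and Mt3 with Cat (r = 0.56, rho = 0.39), with adjusted permutation p of 0.0226, 0.0226, 0.0467 and 0.0226 for r and 0.156, 0.147, 0.371 and 0.33 for rho. Without the 2 farthest organoids r was 0.56, 0.62, 0.43 and 0.48 for these, and of the 4 the pair of Txnip and Prdx6 still passed (adjusted p = 0.0436) and the other 3 did not (adjusted permutation p = 0.133, 0.333 and 0.0909 for Mt1 with Prdx6, Cat with Prdx6 and Mt3 with Cat). Nqo1 with Txnip and Hmox1 with Prdx6 passed without the 2 farthest organoids and not over all 24 (adjusted permutation p = 0.0197 and 0.0436). Within D30 alone, with 6 organoids, r was 0.995 for Mt1 with Mt2, 0.98 for Mt1 with Mt3 and 0.976 for Mt1 with Prdx6, whereas at D25 it was 0.92, -0.53 and -0.39, so that the pooled value of the latter pair does not describe each timepoint.

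**Figure D3:**
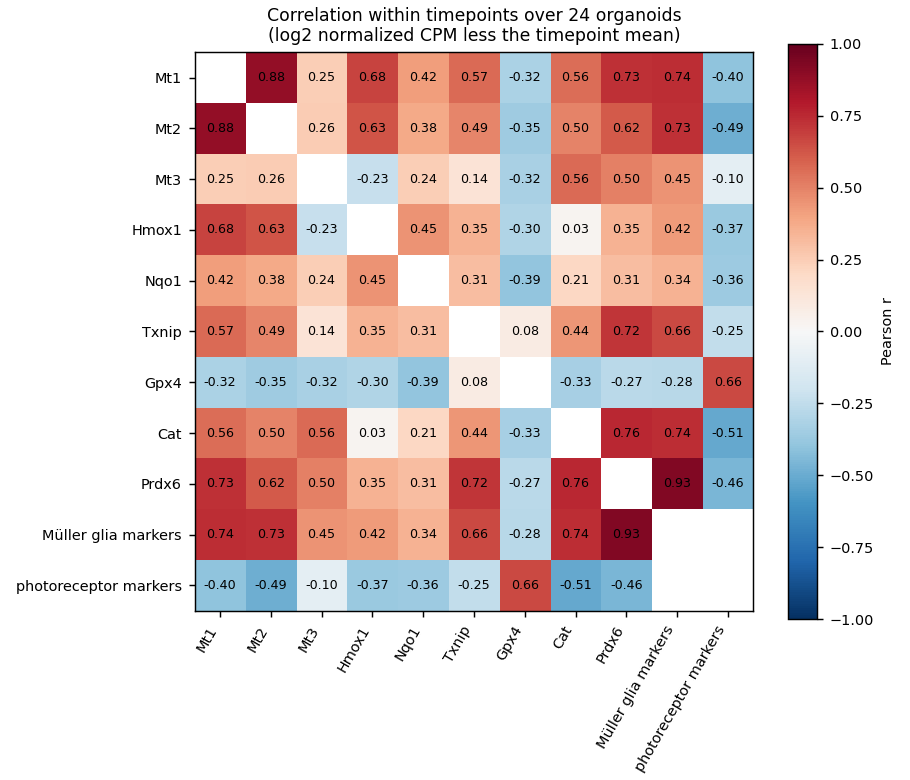
Pearson r (colour, and number in each cell) over 24 organoids of log2 normalized CPM less the timepoint mean, for all pairs of the 9 tested members and for each member with the sums of 10 Müller glia and 6 photoreceptor markers. The Müller glia row is highest for Prdx6 at 0.93, and Gpx4 has its highest value with the photoreceptor markers at 0.66.

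The sums of cell type markers moved with these genes between organoids. The 10 Müller glia markers summed to 4679, 2824, 2267, 2842, 3707 and 1565 CPM in D30 organoids 1 to 6, against 905 to 1471 CPM in the organoids of the earlier timepoints, and all 10 were detected at every timepoint. At D30 Apoe held the largest part, with a mean of 1127 CPM (167 CPM at D20), followed by Slc1a3 with 544 CPM (64.6 CPM at D20). At D20 and D22 Dkk3 held the largest part, with means of 649 and 393 CPM, and it was at 292 CPM at D30. Sox9 went from 71.4 CPM at D20 to 32.6 CPM at D30. The sum is thus weighted to different genes at different timepoints. In a set of 18 correlations added after the levels had been seen, computed as for the pairs and adjusted over 18, 7 passed. Prdx6 followed the Müller glia sum with r = 0.93 (adjusted permutation p = 0.00054) and rho = 0.74 (adjusted p = 0.00414), and r was 0.79 without the 2 farthest organoids, D30 organoids 1 and 6. For Mt1 and Mt2 r was 0.74 and 0.73 (adjusted permutation p = 0.0105 for each), with 0.56 and 0.53 without the 2 farthest organoids, and rho was 0.61 and 0.53 (adjusted p = 0.0298 and 0.0648). For Cat, Txnip and Hmox1 r was 0.74, 0.66 and 0.42 (adjusted permutation p = 0.0397, 0.0441 and 0.0402), with 0.36, 0.37 and 0.45 without the 2 farthest organoids and rho of 0.34, 0.31 and 0.73 (adjusted p = 0.244, 0.261 and 0.00414). Gpx4 followed the sum of 6 photoreceptor markers, with r = 0.66 (adjusted permutation p = 0.0105), rho = 0.44 (adjusted p = 0.129) and r = 0.50 without the 2 farthest organoids. Mt3 had r = 0.45 with the Müller glia sum over all organoids (adjusted permutation p = 0.0597, rho = 0.32, adjusted p = 0.261) with values of -0.17, -0.16, 0.30 and 0.986 within D20, D22, D25 and D30. Within D25 the value was 0.03 for Mt1, 0.07 for Mt2 and -0.45 for Cat, and within D30 it was 0.96, 0.98 and 0.961, so for these genes the relation is not shared by all timepoints, whereas for Prdx6 it was 0.196, 0.856, 0.862 and 0.991 in order of time.

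Other marker sums moved as well. The 8 mesenchymal markers summed to 15.4 to 40.3 CPM at D20 and 68.6 to 307 CPM at D30, where they were highest in organoids 5 and 1 (307 and 271 CPM) and lowest in organoid 6, and Pdgfra held the largest part with a mean of 85.9 CPM. The 5 choroid plexus markers reached 2682 and 2515 CPM in D30 organoids 2 and 6 against 28.8 to 480 CPM in the other 4, nearly all of it Ttr. The 6 cerebral cortex neuron markers, chiefly Neurod6, summed to 223, 171, 40.7, 194, 224 and 8.48 CPM in D30 organoids 1 to 6, again lowest in organoids 3 and 6, with a median of 18.5 CPM at D22 and 182 CPM at D30. The median sum of the pigment epithelium markers was 159 CPM at D20 and 77.8 CPM at D30. This fall was that of Dct, whose mean went from 151 to 29.5 CPM. Mitf (6.93 to 17.6 CPM), Tyr (3.21 to 6.43), Pmel (2.48 to 7.25) and Tyrp1 (3.14 to 13.9) had higher means at D30 than at D20, and Rpe65 and Best1 were near 0. The median sum of the endothelial markers, nearly all of it Kdr, was 272 CPM at D20 and 177 CPM at D30. The sum of 8 hypoxia-responsive genes was 2419 to 3082 CPM at D20 and 1380 to 2234 CPM at D30, and that of 6 genes of the unfolded protein and amino acid stress responses was 833 to 994 and 1107 to 1427 CPM. The part of cell composition in the changes of the members was not tested.

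**Figure D4:**
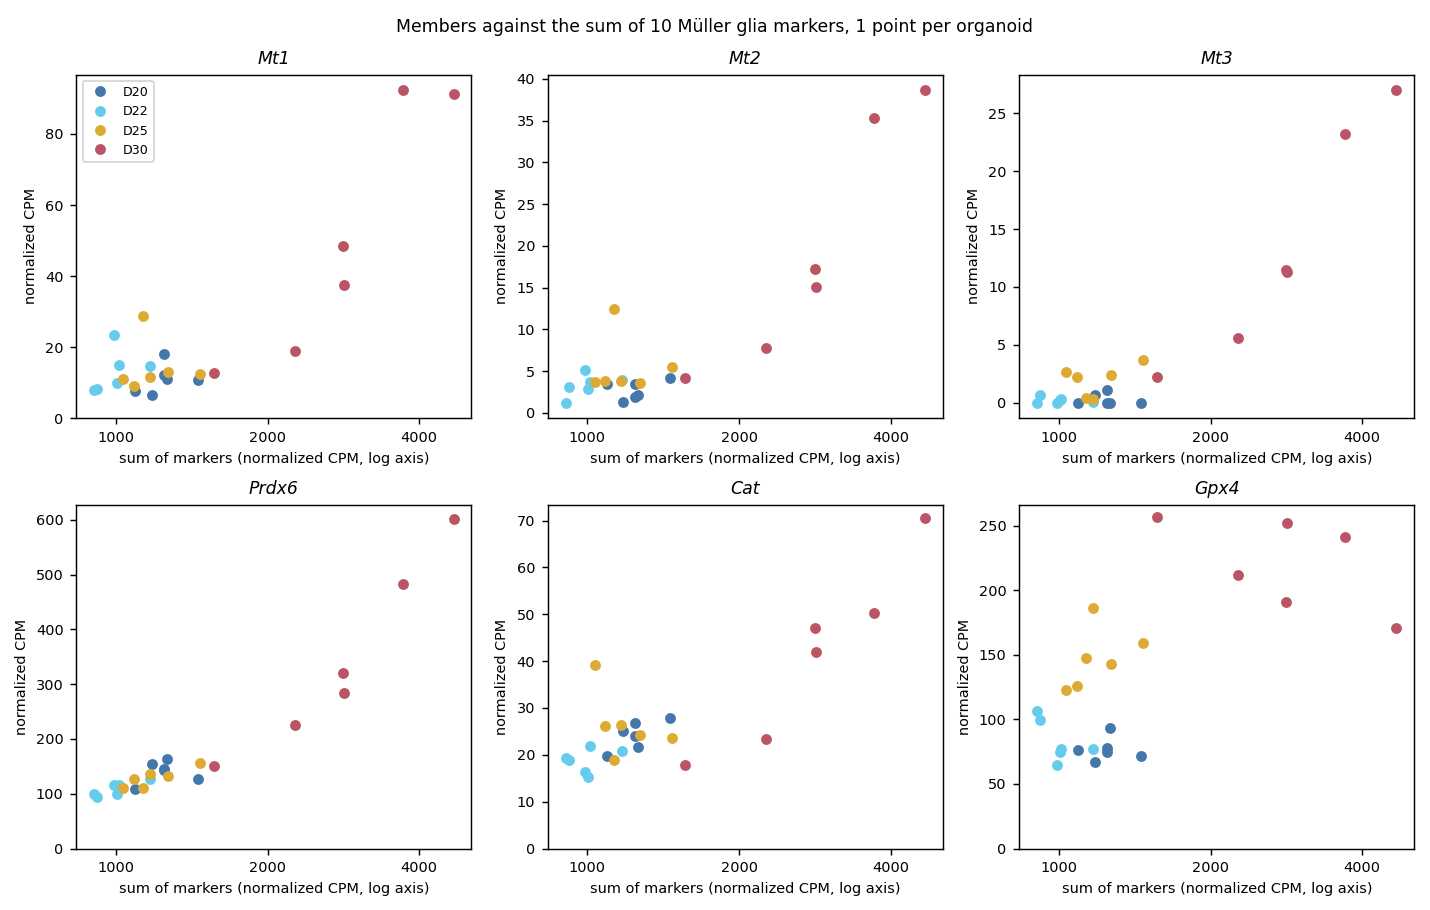
Normalized CPM of Mt1, Mt2, Mt3, Prdx6, Cat and Gpx4 (y axes, linear) against the summed normalized CPM of 10 Müller glia markers (x axes, log scale), with 1 point per organoid coloured by timepoint. The D30 points of Mt1, Mt2, Mt3 and Prdx6 climb from organoid 6, at a sum of 1565, to organoids 5 and 1, at 3707 and 4679, while the Gpx4 points do not.

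Genes of the same pathways were read from a list of 89 others, of which 81 could be tested. At D30 against D20, 31 (38.3%) were called higher and 12 (14.8%) lower, and 38 did not pass. The share of annotated genes called was 25.1% higher and 16.7% lower in that comparison, so the lower calls of the list lie near the background. In the steps the counts were 3 higher and 1 lower at D22 against D20 (3.7% and 1.23%, against 2.56% and 0.763% of annotated genes), 6 and 0 at D25 against D22 (7.41% higher, against 7.33%), and 11 and 1 at D30 against D25 (13.6% and 1.23%, against 4.55% and 2.83%). The median log2 fold change of the list was -0.09, 0.20 and 0.16 in the steps and 0.26 over the whole interval. These were nearer to the medians of annotated genes (-0.06, 0.10, 0.05 and 0.10) than those of the 9 members were. Leaving out 1 organoid moved the count at D22 against D20 to between 0 and 2 (D20 organoids 1 to 5, D22 organoids 1, 3, 4 and 5, and D25 organoids 3 and 4) and that at D25 against D22 to 2 (D22 organoids 1 and 4), 3 (D22 organoid 5) or 10 (D22 organoid 3).

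Glutathione synthesis and recycling was the group with the largest share of calls in 1 direction, 5 of 6 higher at D30 against D20 and 0 lower. In that comparison 25.1% of annotated genes were called higher and 16.7% lower. The cystine importer Slc7a11 rose from 4.02 ± 0.896 to 25.2 ± 17.7 CPM (SD, n = 6; log2 fold change 2.65 ± 0.33, adjusted p = 1.2e-07) and its partner subunit Slc3a2 from 50.4 ± 10.7 to 94.3 ± 10.9 CPM (0.90, adjusted p = 2.8e-07). Gclm, the modifier subunit of the first enzyme of glutathione synthesis, gained 1.25 on the log2 scale (adjusted p = 2.07e-06), and Gsr, which recycles oxidised glutathione, gained 1.04 (adjusted p = 1.84e-06). Of the 11 glutathione transferases 3 were higher and 2 lower. Gstm1 and Mgst1 rose by 2.52 and 1.91, and Gstm7 fell by 1.82 on the log2 scale. Transferases of the Gstm family are similar in sequence, and reads aligning to more than 1 place were left out by the counting.

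The regulators of Nrf2 targets went both ways, with 4 of 8 higher and 3 lower at D30 against D20. The shares of annotated genes to set beside this and the next counts are 25.1% higher and 16.7% lower. With so few genes in a group, several counts lie near those shares, and no group was tested against them. Cul3, the ubiquitin ligase scaffold that works with Keap1, rose by 0.88 ± 0.09 (adjusted p = 1.6e-09) and Mafg by 0.43, whereas Maff fell by 1.72 ± 0.42 (adjusted p = 0.00152) and Mafk by 0.79 on the log2 scale. In haem and iron handling 3 of 7 were higher and 0 lower: Blvra, which reduces biliverdin, at 1.43, the ferritin heavy chain Fth1 at 1.38 and the iron exporter Slc40a1 at 1.59 on the log2 scale. In metal handling 2 of 4 were higher, Mtf1, the metal-responsive transcription factor, at 0.67 ± 0.11 (adjusted p = 1.01e-05) and the zinc exporter Slc30a1 at 0.51 ± 0.13 (adjusted p = 0.00229).

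Counts in the remaining groups are likewise for D30 against D20, where 25.1% of annotated genes were called higher and 16.7% lower. Of the other peroxiredoxins 3 of 5 were higher, Prdx1, Prdx3 and Prdx5, at 0.57, 0.59 and 0.96 on the log2 scale, and Gpx8 was the 1 of 2 other glutathione peroxidases that was higher, at 0.95. In the thioredoxin and glutaredoxin group 2 of 10 were higher and 3 lower, led by Srxn1, which restores overoxidised peroxiredoxins (1.58 ± 0.17, adjusted p = 6.5e-09), and by Txnrd3 (-1.73 ± 0.24, adjusted p = 1.17e-06). Of the relatives of Txnip and the genes of glucose sensing, 1 of 5 was higher and 2 lower. Arrdc3, an arrestin-domain protein like Txnip, rose from 79.0 ± 12.7 to 176 ± 25.6 CPM (1.16 ± 0.12, adjusted p = 3.02e-09) while Txnip fell, and the glucose transporter Slc2a1 and Mlxip, a glucose-responsive transcription factor, fell by 1.16 and 0.95 on the log2 scale. Selenop, which carries selenium to tissues, was the 1 of 7 genes of selenoprotein synthesis and supply that was higher, from 5.82 ± 1.91 to 100 ± 27.2 CPM (4.11 ± 0.25, adjusted p = 8.98e-14), and its receptor Lrp8 was the 1 that was lower (-0.46, adjusted p = 0.00773). NADPH supply had 3 of 6 higher, with Me1 at 1.72, G6pdx at 0.51 and Pgd at 0.52, and Tkt lower by 0.75 on the log2 scale. Detoxification had 2 of 6 higher, Ephx1 at 2.45 and Cbr3, which was near detection at D20. With a mean of 0.0228 CPM at D20, Cbr3 was abundant enough for testing only through later timepoints. Sod2 was the 1 of 2 superoxide dismutases called, at 0.36, and of the 2 genes of lipid peroxidation control 0 were called in edgeR's test.

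**Figure D5:**
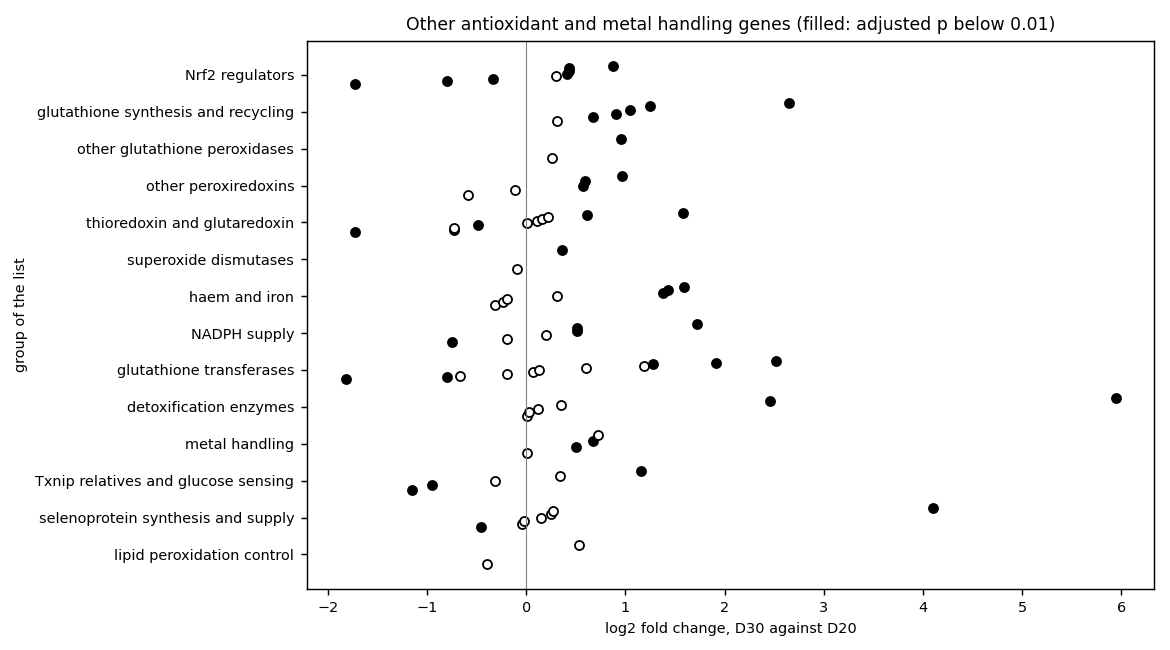
Log2 fold change at D30 against D20 (x axis) of 81 tested genes of antioxidant and metal handling pathways by group (y axis), with 1 circle per gene, filled for an adjusted p below 0.01. All 5 filled circles of glutathione synthesis and recycling lie right of 0, those of the Nrf2 regulators lie on both sides, and Selenop at 4.11 and Cbr3 at 5.94 lie farthest right.

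Each member was also compared with 10854 annotated genes for likeness of its log2 level over the 24 organoids, which differ by timepoint and so share a trend. The gene most like Mt1 was Mt2 (r = 0.944), and the gene most like Mt2 was Mt1. Mt3 was most like Pygb, the brain glycogen phosphorylase (0.978), and Kcnj10, a potassium channel of glia and 1 of the 10 Müller glia markers (0.977). Nqo1 was most like Clu (0.904), another of those markers, followed by Tram1 and by the cystine importer Slc7a11 (0.888). Gpx4 was most like Gnb5, a G-protein subunit that acts in photoreceptors (0.983). Prdx6 was most like Csrp1 (0.948), Cat like Nsmf (0.93), Hmox1 like Anxa5 (0.852) and Txnip like Smpdl3a (0.919). Gpx3 was most like Lamb1, Lamc1 and Col4a1 (0.79, 0.785 and 0.715), which encode basement membrane proteins.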

How the data were processed

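Individual MROs were lysed, ribosomal RNA was depleted and strand-specific libraries were sequenced (HiSeq). Per the submitters' processing notes the tools were bcl2fastq 2.20, cutadapt 1.5, FastQC 0.11.2, HISAT2, SAMtools 1.1, StringTie 1.3.3 and HTSeq 0.6.1. The authors aligned reads to GRCm38, assembled further transcripts, and deposited whole-number counts per feature without normalization. Symbols were matched for 46005 of 46603 annotated genes through GENCODE names.

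Counts were scaled by the trimmed mean of M values and fitted with edgeR 4.0.16 (R 4.3.3, quasi-likelihood test, all 24 organoids, no covariate), keeping the 46949 features whose normalized counts averaged 10 or more. Adjustment was Benjamini-Hochberg over these, with a threshold of 0.01. This favours abundant genes and left out Gpx3. Mt3 and Nqo1, with mean counts of 2.83 to 4.5 at D20 and D22, passed the minimum only through D25 and D30, so a rise helped them to be tested. Their calls at D30 against D20 held in every alternative fit, including that with no filter on low counts (adjusted p up to 1.89e-05 and 0.000132). The common coefficient of biological variation was 0.385. The same fit was also run on simulated counts with known changes at D30, and its outcome is not given here or used as support. Correlations used log2 values with a prior of 2 counts, centred by timepoint, and 100000 two-sided permutations within timepoints. The SE of a log2 fold change and the SD of a level include the spread between organoids, whereas the limit of 3 counts covers counting error only. Groups came from the sample labels.

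The 10 members and all lists were chosen with earlier results of these data known. Named were all members, up to 4 called genes with the largest change per pathway group, and up to 3 most alike genes per member. Of the pathway genes, values are given for those. Alternatives were DESeq2 1.42.0, its size factors, other filters, annotated genes alone, a replicate block, the compared timepoints alone and each organoid left out.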

Additional observations from a re-analysis of the deposited data

Results flagged for a closer look

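Of 40 groups of 6 organoids (10 members at 4 timepoints), 6 held an organoid far from the other 5. Chance gives such an organoid in about 1 of 20 groups only if groups are independent and their values normally distributed. The groups here share organoids and hold correlated genes, and the values are CPM on a linear scale. The 6 therefore cannot be set against that rate, and whether they exceed chance was not tested. D25 organoid 2 was far above the others for Mt1 (28.8 CPM, next 12.9), Mt2 (12.5 CPM, next 5.50) and Hmox1 (18.2 CPM, next 5.62). D30 organoid 1 was far above the others for Txnip (142 CPM, next 80.8). D30 organoid 6 was far above the others for Gpx3 (3.77 CPM, next 0.857). D25 organoid 1 was far above the others for Cat (39.3 CPM, next 26.4).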

How the results depend on the processing

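Across the members' 9 genes and 4 comparisons, 235 values under other settings kept their direction and their side of the threshold, 6 passed newly, 8 no longer passed and 3 changed sign. The sign changes were Hmox1, D25 against D22, at -0.023 with annotated genes only and -0.0189 with the replicate block, and Nqo1, D22 against D20, at 0.16 with the replicate block, all for changes that passed no test. Leaving out 1 organoid kept 817 values, moved 6 into and 28 out of the calls, and changed 13 signs. None of these was called: Mt1, D25 against D22, ranged from -0.21 to 0.35, Mt3, D22 against D20, from -1.42 to 0.49, Hmox1, D22 against D20, from -0.35 to 0.0345 and, D25 against D22, from -0.51 to 0.24, and Nqo1, D22 against D20, from -0.65 to 0.19.

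The number of members called at D25 against D22 was 1 with the replicate block in place of 2, and at D30 against D25 it was 3 with the compared timepoints alone in place of 5. Leaving out 1 organoid gave 0, 1 to 3, 3 to 6 and 7 to 8 members called in the 4 comparisons and 8 to 9 in the joint test. For the pathway list at D22 against D20 (4 called) the count was 2 with filterByExpr, 7 with annotated genes only, 2 with the replicate block and 2 with the compared timepoints alone, and at D25 against D22 (6 called) it was 10 with DESeq2. Leaving out 1 organoid gave 0 to 5, 2 to 10, 8 to 14 and 39 to 45 list genes called. The number of correlated pairs was 7 with a prior of 0.5 counts, 6 without the 2 farthest organoids (4 of the 7 and 2 others, Nqo1 with Txnip and Hmox1 with Prdx6) and 2 by Spearman's rho, against 7. The cause of these changes was not tested, except that a fit of fewer organoids has less information.

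Replicate numbers were shared across timepoints but did not pair the organoids: of 36 same-number pairs 2 had correlated deviations over 0.1 (median 0.0103), as did 8 of 180 pairs with different numbers. Depth limits Mt3, Nqo1 and Gpx3 at D20 and D22, with mean counts of 2.83 to 4.83 per organoid.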
